A study of Mus musculus with 2 samples.

Results

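The loops described here are those of the bromodomain protein BRD2 around Ifitm1, Ifitm2 and Ifitm3, the interferon-induced transmembrane genes of mouse chromosome 7. They were selected by position: a loop belongs if either of its outer edges lies between 148050000 and 148350000 on mm9, and 34 of the 7732 listed loops do. The stretch was picked from these same data because an anchor in it, ending at 148233964, had 6 partners that all lay upstream (at lower coordinates), so the number and side of its partners are a description and were not tested. Loops over 5 Mb were to be set apart, and 0 of the 34 were that long. The study has 2 samples, labelled as replicates of wild-type, untreated V6.5 mouse embryonic stem cells, a line kept here on irradiated fibroblast feeders with serum and LIF. Both were measured by ChIA-PET, which precipitates chromatin with an antibody, here against BRD2, and joins and sequences DNA ends that lie close together. Their results were deposited as 1 merged list, so no value below has a replicate error, there is no other condition to compare with, and a loop that is missing cannot be called absent because the depth is unknown. The list holds no expression values, so neither the cell type nor any share of chromatin from the feeder cells could be checked against markers.

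IFITM proteins sit in cell membranes and hinder the entry of many enveloped viruses. Ifitm3, also called fragilis, and Ifitm1 are known in the mouse for their expression in early germ cells and pluripotent cells, and the family is induced by interferons. BRD2 belongs to the BET proteins, which read acetylated histones at active promoters and enhancers. A gene cluster such as this one can share regulatory elements, and contacts between its parts are one of the things that ChIA-PET can list.

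In the RefSeq gene order of GRCm38.p6, 5 genes of the family stand next to each other on chromosome 7: Ifitm5, which acts in bone-forming cells, Ifitm2, Ifitm1, Ifitm3 and Ifitm6. The 6 protein-coding genes before them are Ric8a, Sirt3 (a mitochondrial deacetylase), Psmd13 (a proteasome subunit), Cox8b (a cytochrome oxidase subunit), Nlrp6 (an innate immune sensor) and Pgghg. The 6 after them are B4galnt4 (a glycosyltransferase), Pkp3 (a desmosome protein), Sigirr (an inhibitor of interleukin-1 and Toll-like receptor signalling), Ano9, Ptdss2 (a phosphatidylserine synthase) and Rnh1 (the ribonuclease inhibitor). Ifitm10 lies further along the same chromosome and Ifitm7 on chromosome 16. The loops are on mm9, an older build than the gene table, and positions were not carried from one to the other. Which anchor lies at which of these genes was therefore not analysed here, and the name of the window comes from the selection rule alone.

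The start regions of the 3 named genes are shown because transcription of the cluster's genes begins there. They come from RefSeq on GRCm38.p6, a build whose coordinates were not set against the loop positions here. The first 3 lines give the 120 bases before the transcript start, Ifitm1 from the plus strand at chr7:140967956-140968075, Ifitm2 from the minus strand at chr7:140955962-140956081 and Ifitm3 from the minus strand at chr7:141010745-141010864. The last line gives the first 30 bases of the Ifitm3 transcript, from the minus strand at chr7:141010715-141010744. Capitals mark matches to the motifs named in the next paragraph.
Ifitm1: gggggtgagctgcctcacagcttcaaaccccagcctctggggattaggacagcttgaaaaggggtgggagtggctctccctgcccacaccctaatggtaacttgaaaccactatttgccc
Ifitm2: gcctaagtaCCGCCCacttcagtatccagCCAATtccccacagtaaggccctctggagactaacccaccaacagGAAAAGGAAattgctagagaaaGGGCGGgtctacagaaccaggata
Ifitm3: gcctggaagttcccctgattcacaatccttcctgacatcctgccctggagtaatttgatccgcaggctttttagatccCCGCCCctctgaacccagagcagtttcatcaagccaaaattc
Ifitm3 transcript start: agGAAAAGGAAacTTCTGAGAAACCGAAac

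The motifs were searched on both strands in windows of 300 bases, 250 before the start and 50 after it, and 7 of 7 Ifitm genes had such a window. The core of the interferon-stimulated response element, GAAANNGAA, occurred in Ifitm2 at -46 to -38 and in Ifitm3 at 3 to 11 and at 20 to 28, counted from the first base of the transcript. The matched letters of Ifitm2 and of the first Ifitm3 match were the same, GAAAAGGAA. This core was found in 8.56% of all 32841 promoter windows of the table. The letters of a gamma-activated site, TTCNNNGAA, were found in Ifitm3 at 14 to 22, overlapping the second response element core, and in 8.3% of all windows. A GC box, GGGCGG, was found 2 times in Ifitm2 and 1 time in Ifitm3, and in 35.7% of all windows. The CCAAT box at -91 to -87 of Ifitm2 is a motif of 37.4% of windows, and TATAAA, which Ifitm2 held on the opposite strand at -175 to -170, of 13.6%. Ifitm1 held none of the 5 motifs in its window, which says only that these letters are not in it. Other family members held some of these motifs too. In Ifitm6, TTCNNNGAA was found at -10 to -2, TATAAA at -46 to -41, GGGCGG at -137 to -132 and CCAAT, on the opposite strand, at -214 to -210. A GC box was also found in Ifitm5, Ifitm7 and some of the windows of Ifitm10.

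The window was dense in BRD2 contacts. When the genome was laid out in stretches of 300 kb from the window's own start, 2411 stretches held at least 1 loop of up to 5 Mb, with a median of 2. The Ifitm window held 34, the highest number of any stretch, and 1 other stretch held as many. By the sum of scores, which was 108000 in the window against a median of 6000, it was 1 of 6 stretches at or above that sum, and the highest was 225000. Since the window was chosen for its loops, these places in the order describe it and support nothing. Both edges lay inside the window for 29 loops, and 5 loops reached out of it.

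A score is the authors' own value for a loop, given in steps of 1000 from 2000 upward, and its unit is not stated. Among the 34 loops, 18 had the lowest score, 5 had 3000, 6 had 4000, 1 had 5000, 3 had 6000 and 1 had 10000. A score above the lowest was held by 47.1% of them (exact Clopper-Pearson 95% interval 29.8 to 64.9%, counting error only), against 42.2% of the whole list. Loops that share anchors are not independent, which the interval does not take into account. A score of at least 4000 was held by 11 of the 34, or 32.4%, against 21.8% of the list. The mean was 3180 ± 1770 (SD over 34 loops) in the window and 3080 ± 2250 (SD over 7732 loops) in the list.

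The loops of the window ran from 5.71 kb to 3.79 Mb, with a median of 36.3 kb and quartiles of 17.0 and 75.1 kb. In the list, with loops over 5 Mb set apart, the median was 27.7 kb and the quartiles 12.4 and 70.8 kb. The outlier in length was the loop from 148303675 to 152095225, with a score of 3000. All others were shorter than 1 Mb, the longest of them being the 314 kb loop from 148094540 to 148408130, which had a score of 2000.

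The 34 loops joined 23 anchors, 19 inside the window and 4 outside it. An anchor is a place where loops end, and both of its sides were known for 11, whose widths ran from 100 to 590 bp with a median of 250 bp, against 350 bp over 2084 anchors of the list. Anchors of the window had 3.04 ± 2.16 partners (SD over 23 anchors), against 1.63 ± 1.06 over the 9269 anchors that carry a loop of up to 5 Mb. At least 6 partners were held by 4 of the 23, or 17.4%, against 96, or 1.04%, in the list. The anchor ending at 148233964, whose 6 partners led to the choice of the window, is 1 of these 4. These partner numbers therefore only describe the window. At the other end, 8 of the 23 had a single partner. The window thus held a few anchors with many contacts among others with few.

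**Figure D1:**
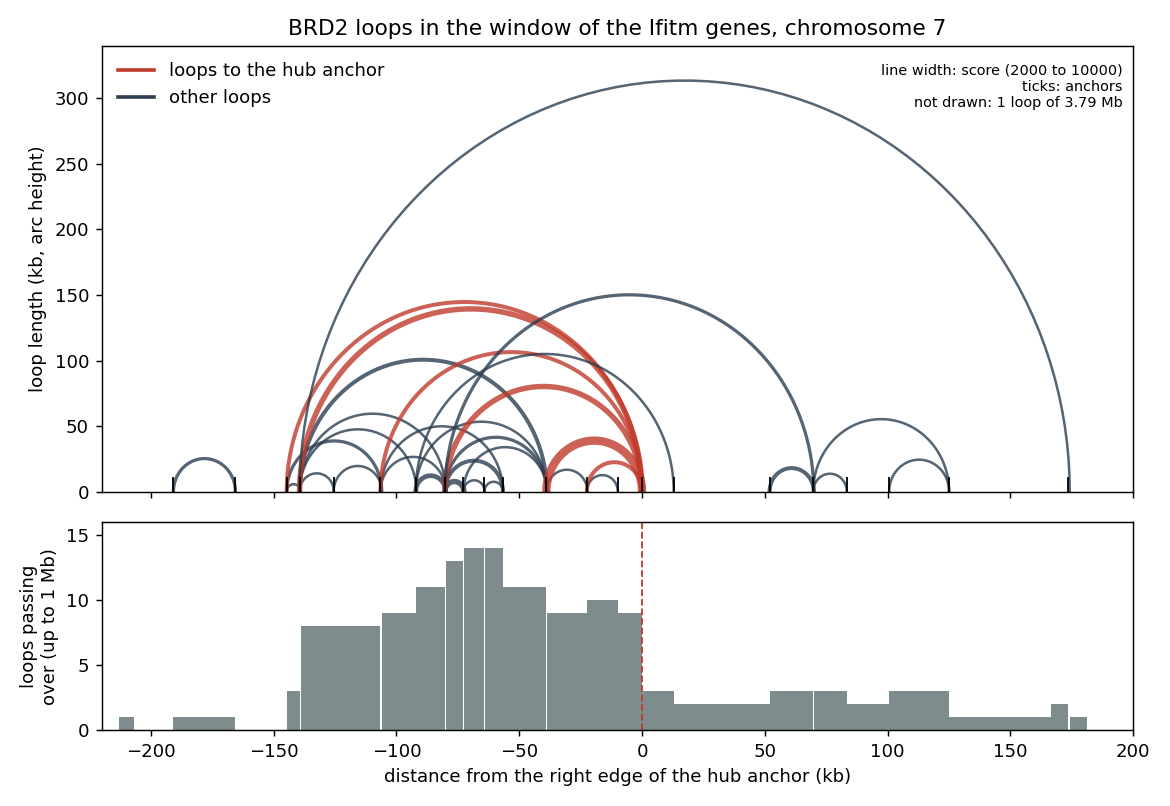
The upper panel draws each loop as an arc over the distance in kb from the right edge of the hub anchor (the anchor ending at 148233964), with arc height as loop length in kb and line width as score; the loop of 3.79 Mb is left out. The lower panel gives the number of loops of up to 1 Mb that pass over each space between neighbouring anchors: 9 just upstream of the hub anchor and 3 just downstream, with a highest value of 14.

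The anchor ending at 148233964, called the hub anchor here, was reached by 6 loops from upstream and by 0 from downstream. Its contact with the anchor at 148195020 to 148195203, 38.9 kb away, had a score of 10000, the highest in the window. Among the 759 listed loops of like length (within a factor of 1.2, the loop itself included), 2.24% reached that score. The contact from 148094540, over 139 kb, and that from 148153718, over 80.2 kb, each had a score of 6000. Such a score was reached by 4.52% of 420 and by 5.35% of 654 loops of like length, respectively. The remaining 3 contacts each had a score of 4000: from 148089288 over 145 kb, from 148127478 over 106 kb and from 148211495 over 22.5 kb. A score of at least 4000 was common at the shortest of these lengths, with 24.4% of 808 loops of like length. It was held by 10.2% of 588 loops at the length of 106 kb and by 11.9% of 396 at the longest.

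None of the 6 hub loops had the lowest score, whereas 18 of the other 28 loops of the window did. Their mean score was 5670 ± 2340 (SD over 6 loops), against 2640 ± 1060 over the other 28. They were also longer, with a median of 93.4 kb against 25.9 kb. The hub anchor thus took 17.6% of the loops and 31.5% of the summed score. Its own sum of 34000 was reached by 44 of the 9269 anchors of the list, itself included. Among the 52 anchors of the list with 6 partners, sums ran from 13000 to 51000 with a median of 21500, and 8 were at or above 34000, the hub anchor among them. Of these 52, 6 had all partners on 1 side, 3 upstream and 3 downstream. The hub anchor had the largest sum of the 6, whose median was 24000 and whose lowest was 17000. These loops all end at the same place, so they are not independent of each other.

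**Figure D2:**
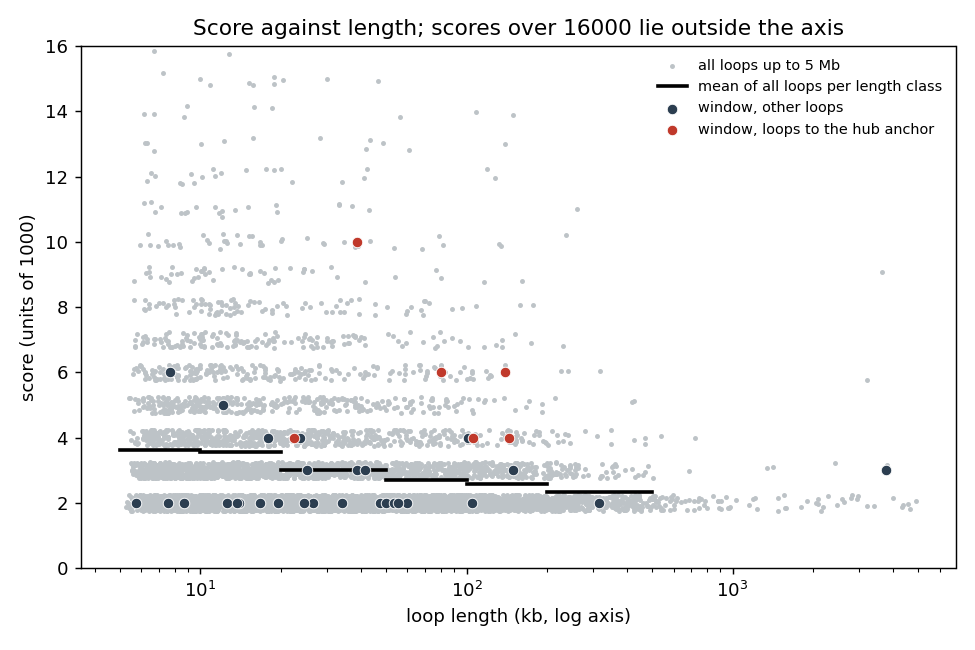
Score (vertical axis, in units of 1000) against loop length in kb (logarithmic axis). Grey points are all loops up to 5 Mb, moved slightly up or down to show ties, black lines their mean per length class, dark points the other 28 loops of the window and red points the 6 loops to the hub anchor, which all lie at 4000 or more at lengths of 22.5 to 145 kb.

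In the list, longer loops tended to have lower scores, and this order was not seen over the window's loops. The loops share anchors and the difference was not tested. Over the loops of up to 1 Mb, Spearman's rho was 0.18 in the window (33 loops) and -0.25 in the list (7531 loops). Without the hub loops it was -0.05 (27 loops). Among loops of 5 to 20 kb, 3 of 11 in the window had a score above 2000, against 55.0% of 3047 in the list. Among loops of 20 to 50 kb, 6 of 11 did, against 41.8% of 1998, and among those of 50 to 100 kb 1 of 4, against 32.7% of 1234. Among loops of 100 to 500 kb, 5 of 7 did, against 27.4% of 1199. The window's shares thus had no steady order with length. In the class of 100 to 500 kb, a score of at least 4000 was held by 4 of the 7, of which 3 ended at the hub anchor, against 9.84% of the list. The intervals of the window's shares are wide, 6.02 to 61.0% for 3 of 11 and 29.0 to 96.3% for 5 of 7.

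The anchor with the most partners was not the hub anchor but that at 148153718 to 148154010, with 8 (3 upstream, 5 downstream). Only 20 anchors of the list, or 0.216%, had as many. Its summed score was 31000. Beside its loop to the hub anchor, its strongest contacts were with its closest neighbours: a loop of 7.71 kb to 148161426 scored 6000 and one of 12.2 kb from 148141834 scored 5000. It was joined to 148177347 with a score of 4000, to the anchor at 148195020 with 3000, and to 148303898, 150 kb away and beyond the hub anchor, with 3000. Its loops from 148094540 and from 148127478 had the lowest score.

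The anchor at 148094540 to 148094994 had 7 partners, 6 of them downstream, and a summed score of 20000. Beside the hub loop, its contact over 101 kb with the anchor at 148195020 had a score of 4000, reached by 11.1% of 605 loops of like length. Its other 5 loops, to 148089288, 148108508, 148142089, 148154010 and 148408130, had the lowest score. The anchor at 148195020 to 148195203 was joined to 4 places upstream and 2 downstream, and its scores added up to 23000. The lowest score was held by 3 of its loops, those from 148141834 and 148161256 and that to 148211745. The anchors at 148094540, 148153718 and 148211495 were thus partners of both this anchor and the hub anchor.

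The rest were less connected. The anchors at 148127478 to 148127985 and at 148303675 to 148303898 had 5 partners each, with sums of 13000 and 14000. The anchor at 148141834 had 4 partners, with 11000. The anchors at 148089288, 148161256 and 148211495 and that ending at 148177347 had 3 each, with sums of 8000 to 10000. Of the window's loops that lay wholly downstream of the hub anchor, those with a score above 2000 were the 18.0 kb loop from 148285910 to 148303898, with 4000, and the 3.79 Mb loop. The loop from 148043181 to 148068409, with a score of 3000, stood alone: neither of its anchors had another partner.

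**Figure D3:**
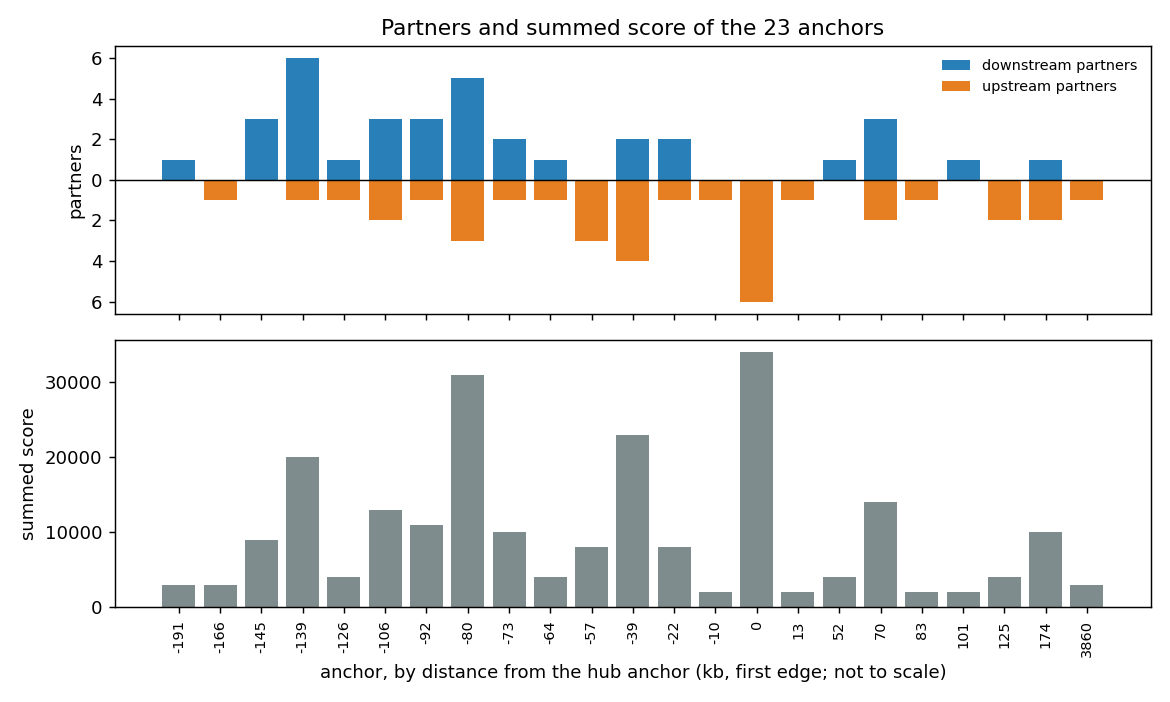
Upper panel, number of partners of each of the 23 anchors, downstream partners above the line and upstream partners below it. Lower panel, summed score of the same anchors, ordered along the chromosome and labelled by distance from the hub anchor in kb (spacing not to scale). The hub anchor at 0 has 6 upstream partners and the largest sum, 34000, while the anchor at -80 has 8 partners in both directions and a sum of 31000.

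Several partners of the hub anchor were joined to each other. Of the 15 pairs that its 6 partners can form, 7 were listed as loops, or 46.7%, with scores of 2000 to 4000. Most of these 7 had the lowest score. The same share was not computed for other anchors of the list, so 46.7% cannot be called high or low. Each such pair closes a triangle with the hub anchor. The triangle of the anchors at 148094540 and 148195020 with the hub anchor had the largest summed score, 20000, followed by that of 148153718, 148195020 and the hub anchor with 19000. A further 6 triangles did not include the hub anchor. The anchor at 148153718 took part in 8 of the 13 triangles, those at 148195020 and 148233964 in 7 each and that at 148094540 in 6. These 4 anchors were joined in every pairing, with scores of 2000, 3000, 4000, 6000, 6000 and 10000.

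**Figure D4:**
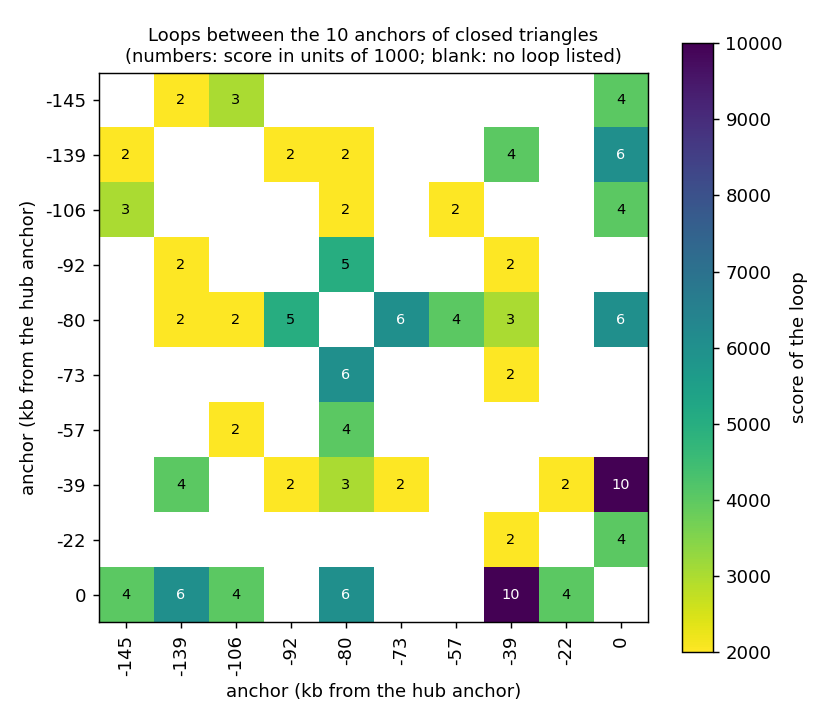
Scores of the loops between the 10 anchors that take part in closed triangles, each labelled by its distance from the hub anchor in kb; colour and number give the score (numbers in units of 1000) and blank cells have no listed loop. Many cells are blank. Among the filled cells, those in the row of the hub anchor, at 0, hold 4000 to 10000, while most others hold 2000 to 4000.

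All but 1 of the window's loops belonged to a single connected group. With loops of up to 1 Mb the group had 22 anchors and 34 loops from 148089288 to 148415099, a span of 326 kb. It held 13 closed triangles among 93 sets of 3 anchors joined by at least 2 loops, or 14.0%, against 12.5% over the list. The 3.79 Mb loop added 1 anchor and 1 loop. In that form, with 23 anchors and 35 loops, it was 1 of 4 groups with at least that many anchors among the 125 groups of 10 or more anchors. It held 1.52 loops per anchor, against a median of 1.17 over those groups. Many of its loops reached past other anchors. Of the 33 loops of up to 1 Mb in the window, 13 joined neighbouring anchors, or 39.4%, against 60.1% of 7531 in the list. Loops that passed over at least 5 anchors numbered 8, or 24.2%, against 5.32% in the list. Passing over anchors depends on how closely they are spaced, which is not the same in the window and in the list.

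Few listed contacts lay upstream of the group or passed over the hub anchor. No listed loop of up to 5 Mb passed over the 20.9 kb between 148068409 and 148089288. The number of loops passing over then rose to 14 on either side of the anchor at 148169805, with a summed score of 46000, and was 9 with a summed score of 41000 over the 9.86 kb before the hub anchor. Over the next 12.9 kb, to 148246886, it was 3, with a summed score of 7000. The step at the hub anchor follows from its 6 upstream partners, which chose it. The 3 loops that passed over it ran from 148094540 to 148408130 and from 148141834 to 148246886, each with a score of 2000, and from 148153718 to 148303898 with 3000. Contacts across the hub anchor were thus listed, with low scores. Past the end of the group, no loop of up to 1 Mb passed over the 185 kb from 148415099 to 148600237.

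The loops just outside the window were short. Upstream, the next was a loop of 6.46 kb from 148020846 to 148027311, with a score of 2000, and it shared no anchor with the window. Downstream, the 7.51 kb between 148400622 and 148408130 were joined with a score of 5000 and the 7.56 kb between 148407540 and 148415099 with 3000. Both of these shared the anchor at 148407540 to 148408130 with the 314 kb loop and so belonged to the same group. A single loop over 5 Mb spanned the whole window without an edge in it.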

How the data were processed

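ChIA-PET for BRD2 was made in 2 samples of 1 group. Per the file header, the authors deposited the high-confidence interactions of the merged dataset. Each loop has a score, the deposited value of the authors, in whole multiples of 1000 with a lowest value of 2000; its unit and normalization are not stated. Tools named in the submitters' processing notes are cutadapt and Bowtie, with mm9 as the build. For the interaction caller, its thresholds and the depth, the sources used here give nothing.

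From these values, a loop was taken to run from the first start column to the first end column, an inference on which every length and anchor rests. Where a loop began and another ended within the following 5000 bp, these edges were treated as 1 anchor. Loops over 5 Mb were set apart, and where stated only loops of up to 1 Mb were used. A closed triangle is a set of 3 anchors joined in all pairs. No test was made, because the list is merged and the members were chosen from it, and the intervals of shares only describe counting error. The anchor, partner and triangle steps were tested on simulated data and recovered 20 of 20 lists. The simulated anchors all lay more than 5000 bp apart, so wrong pairing of edges from different anchors could not occur and was not tried. Software was matplotlib 3.10.9, pandas 2.3.3 and numpy 2.4.6 under Python 3.11.15, with exact intervals from scipy 1.17.1.

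The members, lists, motifs and alternatives were chosen with earlier results of these data known. Named were, by rule, the Ifitm genes with their 6 neighbours on each side, and all loops and anchors of the window. The planned comparison of Ifitm proteins was not run, as no protein sequences were used here. Promoter sequences are those of RefSeq.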

Additional observations from a re-analysis of the deposited data

How the results depend on the processing

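The 8 summary values of the window (loops, summed score, median length, anchors, partners of the hub anchor, loops and closed triangles of its group, share above the lowest score) were recomputed under 8 alternatives, giving 64 values. Of these, 59 stayed close to the reported value, that is within 1.5 times for counts and sums and inside the 95% interval for the median length (19.6 to 55.3 kb) and the share. The other 5 came from a single alternative, which kept only loops above the lowest score. It left 16 loops and 15 anchors in the window, 15 loops and 3 closed triangles in the group, and by construction a share of 100%. The hub anchor had 6 partners under that setting too. Where edges closer than 10000 bp were joined, it had 5, and its group had 26 loops against 35. Both values counted as close. With only loops above the lowest score, the summed score of the window's loops was 72000 against 108000. This lay at the limit of 1.5 times and was counted as close. The other alternatives were joining edges closer than 10000 bp, pairing them within 2000 bp, requiring both edges inside the window, a window 50 kb wider or narrower on each side, loops over 5 Mb included and loops over 1 Mb set apart. Some values could not change. The hub anchor's partners and group do not depend on the window, and 0 of the window's loops were over 5 Mb. The 59 of 64 thus overstates how far the settings were tried. Leaving out each replicate was not run, as the deposited list is a merged one. No paired analysis was possible because both samples form 1 group. Most of the group's triangles thus rest on loops at the lowest score, and how many weaker contacts went unlisted cannot be told without the depth.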
